A study of Sus scrofa with 16 samples.

Results

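Peroxisome proliferator-activated receptor gamma (PPARG) and 7 genes known from fat cells (ADIPOQ, RETN, LEP, FABP4, SCD, FASN and LIPE) were followed in the left ventricle of pigs after a heart attack. The members were taken by symbol: every probe set whose single gene symbol in the array's annotation was 1 of the 8. All 8 genes were measured, by 14 of the 24123 probe sets of the array. Of the 14, 2 for LEP are control probe sets of the array maker and 12 were among the 23999 probe sets tested.

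The study compared swine with a myocardial infarction (MI, 8 animals) with swine that had a sham operation (Sham, 8 animals), each on 1 Affymetrix porcine array, 3 weeks after surgery. All were Yorkshire x Landrace pigs of 2 to 3 months, and each group was labelled as 4 females and 4 males, the males neutered. The labels do not state how the infarction was made, or from where in the left ventricle and how near the scar the tissue came. Animals are named by group and number, as MI 1 or Sham 1, and values are log2 signals as deposited, so a difference of 1 is a doubling of the signal.

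PPARG is a nuclear receptor that pairs with a retinoid X receptor on DNA and switches on the genes of fat storage. It is best known as the master factor of fat cell formation, and macrophages and endothelial cells also use it. Several of the other members are known targets of it: the hormone adiponectin (ADIPOQ), the fatty acid carrier FABP4, which capillary endothelium and macrophages make as well, and enzymes of lipid metabolism. Heart muscle itself takes up and burns fatty acids and stores few of them.

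Several facts of the arrays bear on the results. Control probe sets without a target in the sample reached 4.99, which is used here as the background, and a probe set at or below it has only a bound. The poly-A spike-in controls separated the arrays into a set A (11 arrays, 6 MI and 5 Sham) and a set B (MI 7, MI 8, Sham 6, Sham 7 and Sham 8). The actin control's 3' signal less its 5' signal, a sign of RNA and labelling quality, was 2.64 ± 0.29 (SD, n = 11) in set A and 1.42 ± 0.14 (n = 5) in set B, against 2.39 ± 0.59 in MI and 2.12 ± 0.68 in Sham animals (n = 8 each). MI 7, labelled female, had a signal of 9.51 for the Y-linked transcript EIF1AY, within the 9.40 to 9.96 of the 8 labelled males and far from the 3.00 to 3.51 of the other 7 labelled females. Its label was kept, and results were also computed without it. The tissue was heart muscle by its markers: the 7 measured of 8 cardiomyocyte markers averaged 14.1 to 14.3 in MI and 14.2 to 14.3 in Sham animals.

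The main question was whether these genes differ between infarcted and sham-operated hearts. PPARG rose and 1 of the 4 FASN probe sets fell. ADIPOQ passed with a higher and RETN with a lower signal in MI, both at signals around background, and the remaining 8 tested probe sets did not pass the test (limma, Benjamini-Hochberg adjusted p under 0.05 over all probe sets tested). Of the 12, 5 had a higher and 7 a lower mean in MI, with a median difference of -0.08. The share passing was 33.3%, against a background of 10.5% over all probe sets (5.39% higher and 5.14% lower). An unadjusted p under 0.05 was found for 6 of the 12, against 23.6% of all probe sets. By the brightest probe set of each gene, 2 of 8 genes passed higher and 1 lower (37.5%), with 7.63% of 6765 genes passing, 4.12% higher and 3.5% lower. The genes were chosen with earlier results known, so these shares are a description. None of the 12 had groups without overlap, against 2.96% of all probe sets.

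**Figure D1:**
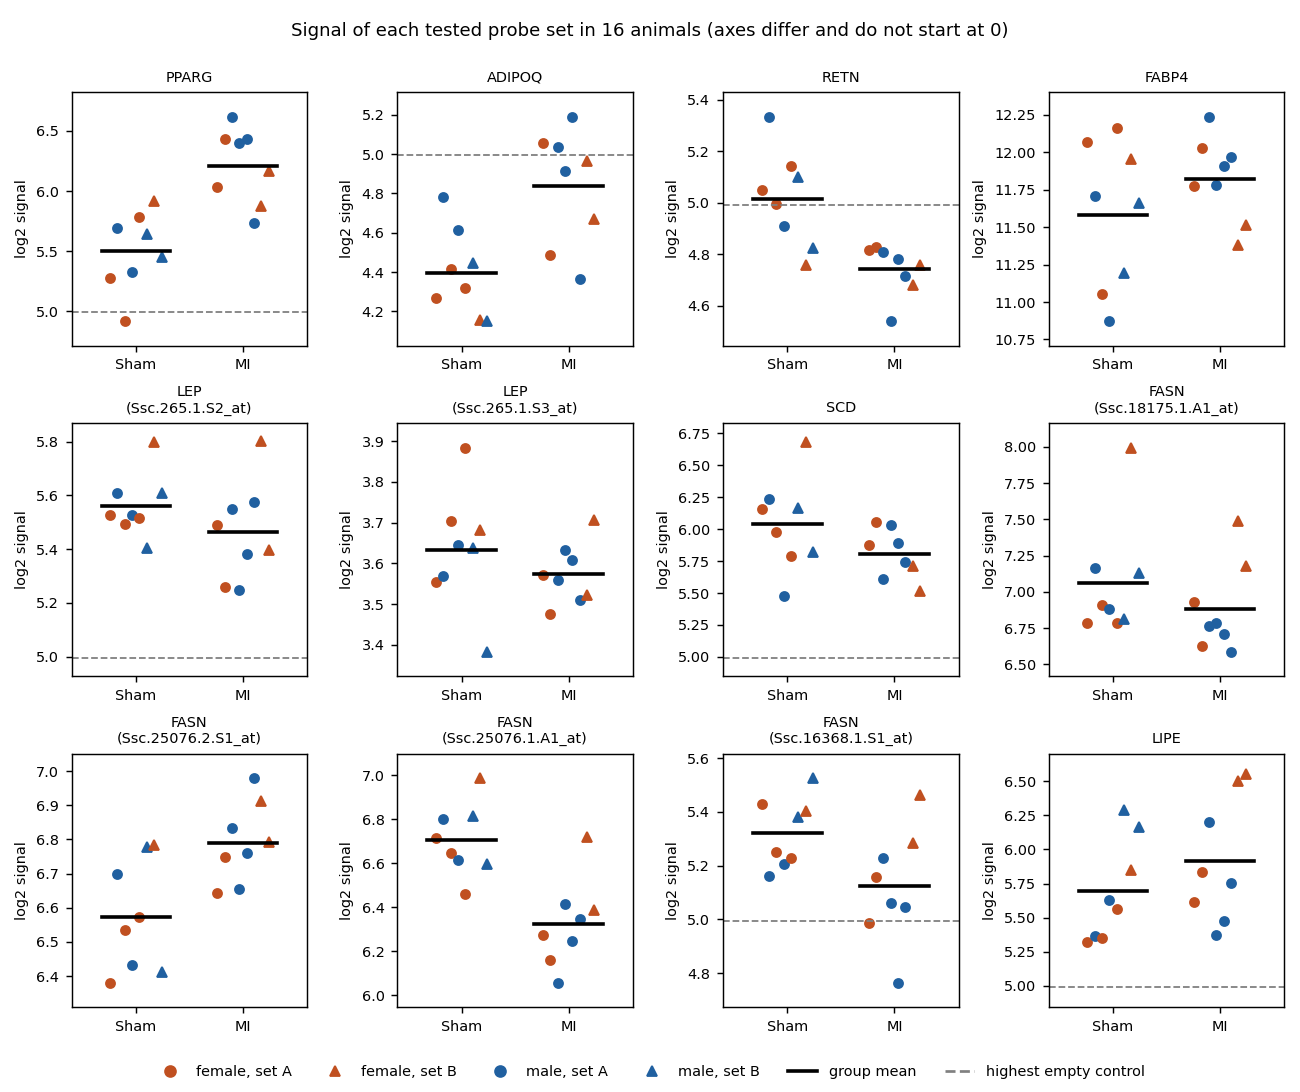
The plot of member signals by animal shows the log2 signal of each tested member probe set in each animal (MI and Sham, n = 8 each), with the group mean and, where it falls near the signals, the background level of 4.99. PPARG in 6 MI animals lies above every Sham animal, ADIPOQ and RETN lie around the background, and FASN Ssc.25076.1.A1_at in 7 MI animals lies below every Sham animal.

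PPARG, the regulator of the set, had signals of 5.74 (MI 6), a median of 6.28 and 6.62 (MI 3) in MI animals. In Sham animals it ran from 4.92 (Sham 3) over a median of 5.55 to 5.91 (Sham 7). Of the 8 MI animals, 6 lay above all Sham animals, and MI 6 and MI 7 lay within the Sham range; all 8 were above the Sham mean. The mean rose from 5.50 ± 0.32 to 6.21 ± 0.31 (SD, n = 8 each), a difference of 0.71 (SE 0.15, 95% confidence interval 0.38 to 1.04), or 1.64-fold, with a limma adjusted p of 0.0076. The difference passed whichever single animal was left out (0.62 to 0.80), without MI 7 at 0.75 (adjusted p = 0.00875). It was 0.85 within set A (adjusted p = 0.0258). Within the 5 arrays of set B, fitted here and below without a term for sex, it was 0.35 (adjusted p = 0.538). All MI arrays of set B were labelled female and its Sham arrays were of both sexes, so group and labelled sex are mixed there. In whole tissue, more cells of a type and more RNA per cell cannot be told apart.

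ADIPOQ encodes adiponectin, the hormone most specific to fat cells. Its signal ran from 4.37 (MI 6) over a median of 4.94 to 5.19 (MI 5) in MI animals, and from 4.15 (Sham 8) over 4.37 to 4.78 (Sham 2) in Sham animals. It exceeded the background in 3 MI animals and in 0 Sham animals, so both means (4.83 ± 0.29 and 4.39 ± 0.22) lay below it, only bounds are available, and no size is given for the difference. Of the MI animals, 5 were above all Sham animals, while MI 2, MI 6 and MI 8 fell within their range. The higher signal in MI passed (limma adjusted p = 0.0336), but no longer did without any 1 of MI 1, MI 3, MI 4, MI 5, MI 7, Sham 1, Sham 5, Sham 6, Sham 7 or Sham 8, where the adjusted p reached 0.0695 (0.0608 without MI 7). The mean was higher in MI within set A (adjusted p = 0.241) and within set B (adjusted p = 0.370), without passing in either.

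RETN encodes resistin, a secreted protein that comes from fat cells in rodents and largely from monocytes and macrophages in humans. Its signal ran from 4.54 (MI 4) over a median of 4.77 to 4.83 (MI 2) in MI animals and from 4.76 (Sham 7) over 5.02 to 5.33 (Sham 2) in Sham animals. It exceeded the background in 0 MI and 5 Sham animals, so the MI level is only a bound and no size is given for the difference. Of the Sham animals, 6 lay above all MI animals, and Sham 7 and Sham 8 lay within the MI range. The measured means were 4.74 ± 0.10 in MI and 5.01 ± 0.18 in Sham animals (limma adjusted p = 0.0414), and the lower signal in MI no longer passed when only probe sets above background were tested (adjusted p = 0.0737). It passed in only 3 of the 16 fits that left out 1 animal, those without Sham 4, Sham 7 or Sham 8. In the other 13, which left out any of the 8 MI animals, Sham 1, Sham 2, Sham 3, Sham 5 or Sham 6, the adjusted p was up to 0.0852, and it was 0.0706 without MI 7. The mean was lower in MI within set A (adjusted p = 0.0504) and within set B (adjusted p = 0.723), without passing in either.

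LEP encodes leptin, the hormone by which fat tissue reports its stores. It did not pass by any probe set. By Ssc.265.1.S2_at it ranged from 5.25 to 5.80 in MI and from 5.40 to 5.80 in Sham animals, with a difference of -0.10 (SE 0.08, interval -0.27 to 0.08, limma adjusted p = 0.539). The probe set Ssc.265.1.S3_at was below background in all 16 arrays (3.38 to 3.88). The array also carries LEP among its control probe sets, which were tested as an alternative chosen after the data were seen. The one for the 5' part of the transcript averaged 6.76 ± 0.12 in MI and 6.53 ± 0.17 in Sham animals, a difference of 0.23 (SE 0.08, limma adjusted p = 0.0742), and all 8 MI animals lay above the Sham mean. The one for its middle part differed by -0.04 (SE 0.07, adjusted p = 0.782). The 4 LEP probe sets thus differed in sign, and none passed.

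FABP4 binds fatty acids inside the cell. Its signal ran from 11.38 (MI 7) over a median of 11.85 to 12.24 (MI 3) in MI animals and from 10.87 (Sham 4) over 11.69 to 12.16 (Sham 5) in Sham animals. The groups overlapped, with only MI 3 above all Sham animals and 3 Sham animals below all MI animals. The difference was 0.24 (SE 0.17, interval -0.12 to 0.60, limma adjusted p = 0.439). Within set A it was 0.41 and within set B -0.16, neither passing.

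SCD, the desaturase that makes monounsaturated fatty acids, averaged 5.81 ± 0.19 in MI and 6.04 ± 0.36 in Sham animals. Its values ran from 5.52 to 6.06 in MI and from 5.48 to 6.69 in Sham animals, so every MI animal fell within the Sham range. The difference was -0.23 (SE 0.14, interval -0.53 to 0.06, limma adjusted p = 0.343), with -0.02 within set A and -0.61 within set B.

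FASN, the fatty acid synthase that builds palmitate, had 4 probe sets that differed in sign. The array's annotation ties them to FASN through 4 different sequence records, and the probes were not aligned here. By Ssc.25076.1.A1_at the signal ran from 6.06 (MI 3) over 6.31 to 6.72 (MI 7) in MI animals and from 6.46 (Sham 5) over 6.68 to 6.98 (Sham 7) in Sham animals. All MI animals but MI 7 lay below all Sham animals. The fall from 6.70 ± 0.16 to 6.33 ± 0.20 was -0.38 (SE 0.09, interval -0.58 to -0.18, limma adjusted p = 0.017), and it passed whichever animal was left out (-0.43 to -0.33). It was -0.42 within set A (adjusted p = 0.0181) and -0.24 within set B (adjusted p = 0.661).

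Ssc.25076.2.S1_at, whose identifier shares its first number with the one above, had the opposite sign. It averaged 6.79 ± 0.12 in MI and 6.57 ± 0.16 in Sham animals, a difference of 0.22 (SE 0.08, interval 0.05 to 0.38, limma adjusted p = 0.0991), with all 8 MI animals above the Sham mean. Within each array, the second of these signals minus the first ran from 0.19 (MI 7) over a median of 0.46 to 0.77 (MI 3) in MI animals. In Sham animals it ran from -0.33 (Sham 1) over -0.15 to 0.11 (Sham 5). The groups did not overlap in this within-array difference, as in 2.33% of all 5022 pairs of probe sets of 1 gene. The pair was chosen for its opposite signs after the values were seen, so this is a description without a test. The brightest FASN probe set, Ssc.18175.1.A1_at, averaged 6.88 ± 0.31 in MI and 7.06 ± 0.41 in Sham animals (difference -0.17, interval -0.52 to 0.18, adjusted p = 0.588). Ssc.16368.1.S1_at averaged 5.12 ± 0.21 and 5.32 ± 0.13 (difference -0.20, interval -0.38 to -0.02, adjusted p = 0.165). A direction for FASN as a gene is therefore not given.

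LIPE, hormone-sensitive lipase, releases fatty acids from stored fat. It ran from 5.37 (MI 4) over a median of 5.80 to 6.55 (MI 8) in MI animals and from 5.32 (Sham 1) over 5.60 to 6.29 (Sham 6) in Sham animals. The difference was 0.22 (SE 0.18, interval -0.16 to 0.60, limma adjusted p = 0.511). Its level followed the array sets more than the groups: set B stood above set A by 0.82 among MI and by 0.66 among Sham animals. The actin measure moved with the sets as given above, and its part in the LIPE signal was not tested. With the set as a block the difference was 0.31 (adjusted p = 0.0786).

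**Figure D2:**
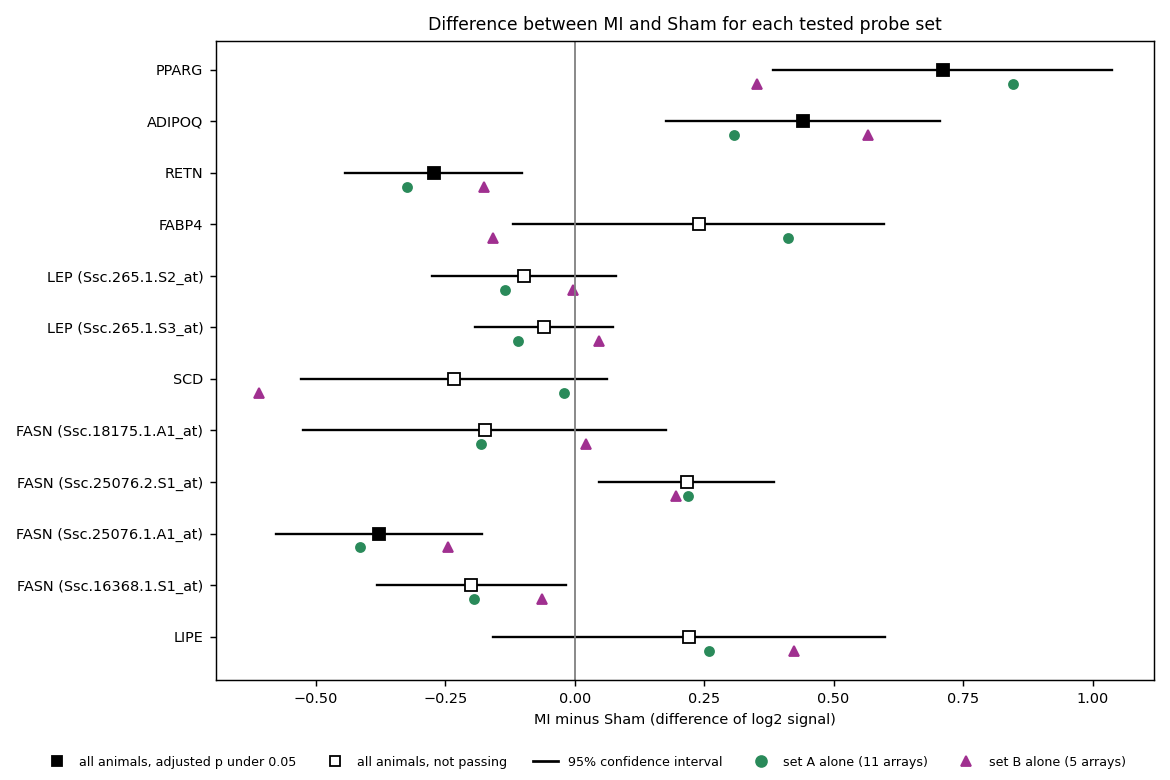
The plot of differences gives MI minus Sham on the log2 scale for the 12 tested probe sets. Squares with 95% confidence intervals are from all 16 animals, filled where the adjusted p was under 0.05. The values within set A and within set B, the latter fitted without a term for sex, are shown beside them. PPARG stands at 0.71 and FASN Ssc.25076.1.A1_at at -0.38 with intervals clear of 0, and FASN Ssc.25076.2.S1_at, at 0.22, and FASN Ssc.25076.1.A1_at lie on opposite sides. The values of ADIPOQ, RETN and LEP Ssc.265.1.S3_at are differences between signals at or near background.

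The labelled sexes were compared next. Within females 0 of the 12 probe sets passed in limma and 4 had an unadjusted p under 0.05, with 2.85% of all probe sets passing and 16.2% under 0.05 unadjusted. Within males 0 passed and 6 had an unadjusted p under 0.05, with 3.4% of all passing and 19% under 0.05 unadjusted. The difference between the sexes in the effect of MI, the interaction, passed for 0 of all probe sets (unadjusted, 1363 or 5.68% lay under 0.05, of which 2 were members). In the comparison of female with male animals 0 members passed, with 0.0583% passing over all probe sets, and 0 members had an unadjusted p under 0.05, against 3.11% of all.

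PPARG was higher on average in MI animals of both sexes, without passing in either. In females it averaged 6.13 ± 0.24 in MI and 5.47 ± 0.46 in Sham animals (n = 4 each), a difference of 0.65 (limma adjusted p = 0.127). In males it averaged 6.29 ± 0.38 and 5.53 ± 0.17, a difference of 0.77 (adjusted p = 0.0655). The interaction was -0.11 (SE 0.31, interval -0.77 to 0.54, adjusted p = 0.948). Without MI 7 the female difference was 0.74 (adjusted p = 0.139). The male difference passed when MI 6 was left out (0.95, adjusted p = 0.0288), and, with its value unchanged, when Sham 3 (adjusted p = 0.0436) or Sham 7 (adjusted p = 0.0493), both females, was.

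FABP4 and LIPE had the members' lowest p in the interaction, with opposite signs and neither passing. FABP4 averaged 11.68 ± 0.29 in MI and 11.81 ± 0.51 in Sham females, and 11.97 ± 0.19 in MI and 11.36 ± 0.40 in Sham males. Its interaction, female minus male, was -0.75 (SE 0.34, limma unadjusted p = 0.0417, adjusted p = 0.794), and -0.65 without MI 7. LIPE averaged 6.13 ± 0.47 in MI and 5.52 ± 0.25 in Sham females, and 5.70 ± 0.37 in MI and 5.86 ± 0.44 in Sham males. Its interaction was 0.77 (SE 0.36, unadjusted p = 0.0477, adjusted p = 0.794), and 0.64 without MI 7. With the set as a block the LIPE interaction was 0.26, while that of FABP4 was -0.70. Both set B animals of the MI group were labelled female, and 2 of the 3 of the Sham group were males.

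**Figure D3:**
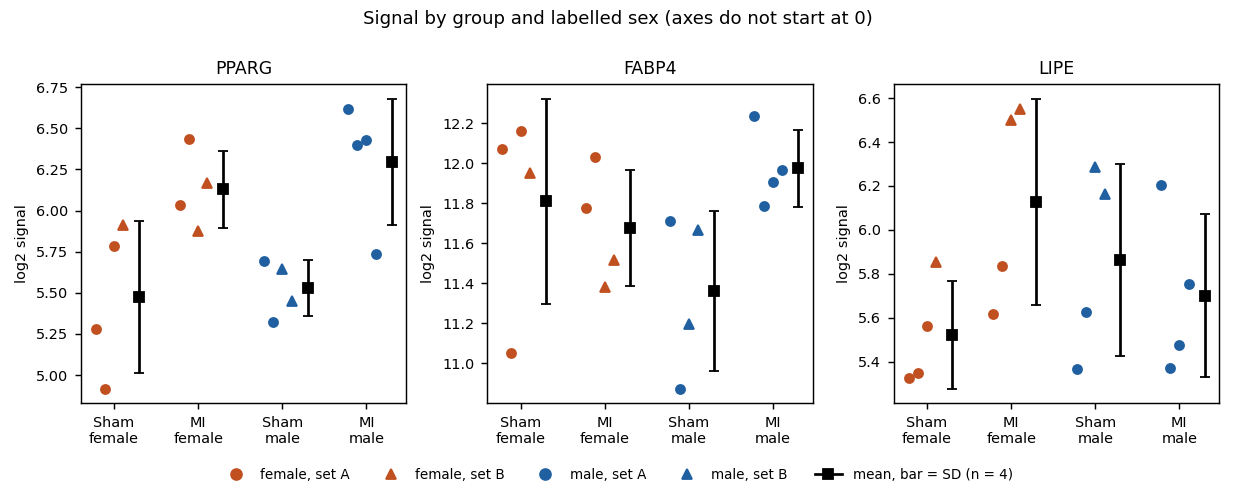
The plot by sex and array set shows the log2 signal of PPARG, FABP4 and LIPE in MI and Sham animals, females and males apart (n = 4 each), with set A and set B marked. The 5 set B animals hold high LIPE signals (5.85 to 6.55) in both groups, and the FABP4 means are 11.97 in MI and 11.36 in Sham males, and 11.68 and 11.81 in females, with no passing difference in either sex or between them.

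Other genes of the same pathways were read first by the brightest probe set of each and then by their dimmer ones. Of 79 listed genes 57 were measured under a single symbol, and by their brightest probe set 0 passed higher and 1 lower in limma (1.75%, against 7.63% of all genes), while 7 had an unadjusted p under 0.05, against 18.1% of all genes. Among their 40 dimmer probe sets 2 passed higher and 6 lower (20.0%), against 11% of the 3304 dimmer probe sets of all genes (5.15% higher and 5.87% lower). The counts for each list below are by the brightest probe set. Their median difference was -0.02, against 0.0048 over all genes. FADS2, a desaturase of polyunsaturated fatty acids, was the gene that passed by its brightest probe set, at 4.23 ± 0.11 in MI and 4.69 ± 0.13 in Sham animals, with both means below background.

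Among PPARG's partners and other regulators of fat cell formation, 16 of 21 were measured and 0 passed by the brightest probe set (1 unadjusted), while a dimmer probe set passed lower for 4 of them (CEBPD, PPARA, NCOR1 and NCOA1, given below). The retinoid X receptor RXRA, with which PPARG pairs, averaged 5.60 in MI against 5.67 in Sham animals (adjusted p = 0.606). CEBPA, which acts beside PPARG in fat cells, averaged 5.62 against 5.43 (adjusted p = 0.328). Both were named after their values were seen. The lowest p in the list were those of MED1, a Mediator subunit with a signal below background (adjusted p = 0.172), and the coactivator NCOA1 (-0.17, adjusted p = 0.312). Of 8 measured genes of the lipid droplet and lipolysis out of 14, 0 passed (1 unadjusted). ADRB3, the adrenergic receptor of fat cells, differed by 0.17 (adjusted p = 0.119) and ABHD5, the activator of triglyceride lipase, by 0.23 (adjusted p = 0.227).

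In fatty acid and triglyceride synthesis 13 of 18 genes were measured and FADS2 alone passed (2 unadjusted). ACACA, the acetyl-CoA carboxylase ahead of FASN, had a higher mean in MI without passing (adjusted p = 0.0549), at signals below background. In uptake of fatty acids and glucose 11 of 14 were measured and 0 passed (2 unadjusted), with the fatty acid transporter SLC27A1 at -0.21 (adjusted p = 0.163) and the insulin receptor substrate IRS1 below background (adjusted p = 0.167). Of other adipokines and receptors 9 of 12 were measured and 0 passed (1 unadjusted). The lowest p were those of the retinol carrier RBP4 (adjusted p = 0.0746) and the leptin receptor LEPR (adjusted p = 0.492), both below background.

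The 8 passing dimmer probe sets are named here after their values were seen, and 5 of them lay below background in both groups. The 3 above it were 1 probe set of the insulin-regulated glucose transporter SLC2A4 (5.94 in MI, 5.44 in Sham animals, difference 0.50, adjusted p = 0.00283), 1 of NCOA1 (6.73 and 6.99, difference -0.26, adjusted p = 0.0359) and 1 of the corepressor NCOR1 (8.03 and 8.27, difference -0.25, adjusted p = 0.0418). The brightest SLC2A4 probe set differed by 0.14 (adjusted p = 0.742) and the remaining one by 0.02. Those below background were lower for CEBPD, PPARA and GPAM, and for the elongase ELOVL6 1 was higher and 1 lower, so probe sets of 1 gene disagreed there too.

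**Figure D4:**
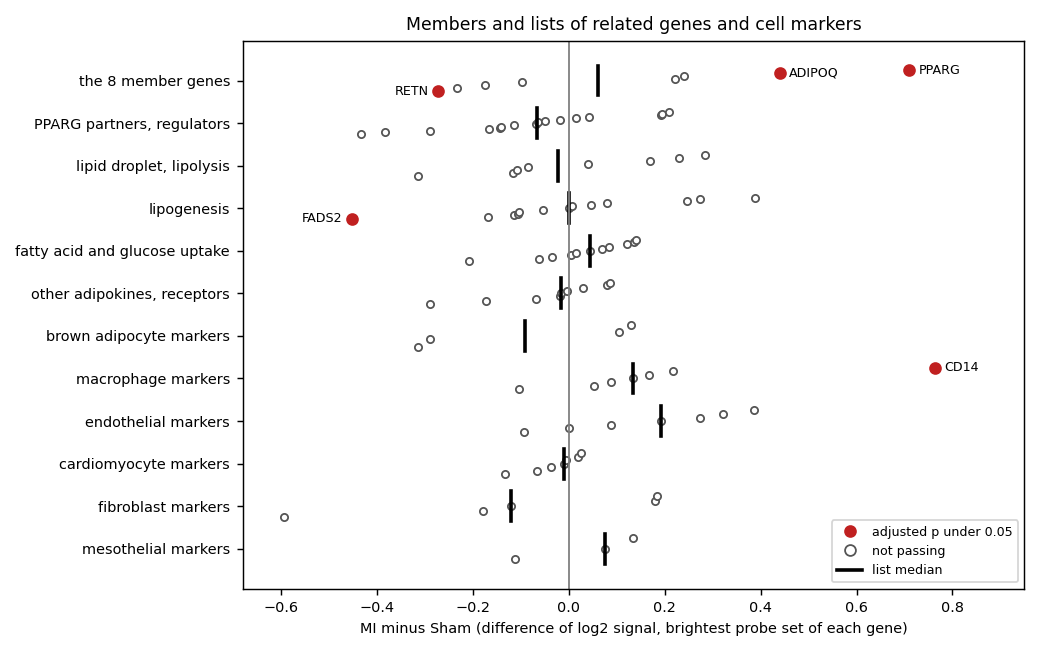
The plot of lists shows the MI minus Sham difference in log2 signal for the brightest probe set of each member gene and of each gene in the pathway and cell marker lists, with the median of each list as a bar. PPARG, ADIPOQ, RETN, FADS2 and CD14 are the genes filled as passing, of which ADIPOQ, RETN and FADS2 lie around or below background, and the list medians lie between -0.12 and 0.19.

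Markers of cell types that could carry these transcripts were set beside them. Of the 6 white adipocyte markers 4 were measured, 3 of them members, and 1 (ADIPOQ) passed; their summed log2 signal ran from 24.5 to 27.3 in MI and from 24.8 to 26.0 in Sham animals. The adipsin gene CFD, the marker that is no member, averaged 9.63 ± 0.48 in MI against 9.80 ± 0.17 in Sham animals (adjusted p = 0.602). ADIPOQ, the defining marker, lay near background, and the other 3 measured markers lay above it by their brightest probe sets. Whether fat cells carried these transcripts was not tested, so the genes are described as genes and not as a sign of fat cells. Of 4 measured brown adipocyte markers out of 6, 0 passed (0 unadjusted), with DIO2, the deiodinase, below background (adjusted p = 0.271) and PPARGC1A, the PPARG coactivator, at -0.29.

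Of 7 measured macrophage markers out of 10, 1 passed, CD14, the lipopolysaccharide co-receptor. By its brightest probe set it rose by 0.76 (limma adjusted p = 0.00314) from 5.97 ± 0.40 to 6.74 ± 0.15. The dimmer CD14 probe set averaged 5.42 in MI and 5.14 in Sham animals without passing (difference 0.28, adjusted p = 0.056). The marker with the next lowest p, AIF1, a calcium-binding protein of macrophages, differed by 0.22 (adjusted p = 0.369). The summed log2 signal of the 7 markers ran from 48.9 to 52.6 in MI and from 48.8 to 50.8 in Sham animals. Of 7 measured endothelial markers out of 8, 0 passed (1 unadjusted), with a list median of 0.19, the VEGF receptor KDR at 0.39 (adjusted p = 0.130) and the adhesion molecule PECAM1 at 0.27 (adjusted p = 0.344). Their summed log2 signal ran from 62.3 to 65.1 in MI and from 59.2 to 66.2 in Sham animals. The part of macrophage or endothelial RNA in the PPARG difference was not tested. Cardiomyocyte (7 of 8 measured), fibroblast (5 of 7) and mesothelial (3 of 6) markers had 0 passing and 0 with an unadjusted p under 0.05. The genes with the lowest p among them were ACTC1 (-0.13) and TNNC1 (-0.04), POSTN (-0.59, adjusted p = 0.257) and COL3A1 (0.18), and KRT19 (below background) and TCF21 (0.13). These marker counts are by the brightest probe set. Of 16 dimmer probe sets of the marker genes 3 passed (18.8%), against 11% of the dimmer probe sets of all genes. All 3 lay below background, with MARCO lower and KDR and COL1A2 higher in MI.

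Whether the members varied together from animal to animal was asked over pairs of genes. After the means of group and array set were subtracted, the 28 pairs of the 8 genes had a median Pearson r of 0.09 over 16 animals, 18 positive and 10 negative. No pair passed after Benjamini-Hochberg adjustment (permutation tests, two-sided, 100000 permutations), and 3 had an unadjusted p under 0.05. PPARG and FABP4 had r = 0.57 and Spearman's rho = 0.56 (permutation p = 0.0211, adjusted p = 0.197), with r = 0.55 without the 2 animals farthest from the median of PPARG and 0.53 within set A. SCD and LIPE ran opposite, with r = -0.64 and rho = -0.62 (permutation p = 0.00796, adjusted p = 0.111), and -0.63 within set A. Each gene stood here by its brightest tested probe set, LEP by Ssc.265.1.S2_at and FASN by Ssc.18175.1.A1_at alone. LEP and FASN had r = 0.64 and rho = 0.53 (permutation p = 0.0067, adjusted p = 0.111). Their r was 0.48 without 2 animals and 0.23 within set A. Sham 7 held the highest Sham signal of both (5.80 and 7.99), and MI 7 the highest MI signal of both (5.80 and 7.49). Both animals belong to set B. Set B, with 5 arrays, was too small for its own value.

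Genes most like PPARG across the 16 animals, by the same Pearson r among 5924 genes above background, were PPP1R14A (0.81), FNBP1L (0.79), RAMP2 (0.78), SNAP29 (0.77) and CCNY (0.76). ADIPOQ itself was above background in only 3 animals, so its list ranks genes against a signal around background: it held KLHDC2 (0.81), PREB (0.78), CNBP (0.74), EDC3 (0.73) and C10H9orf64 (0.72). Without the subtraction of group and set means, r ran from 0.14 (SNAP29) to 0.68 (CCNY) in the PPARG list. In the ADIPOQ list it then ran from -0.07 (PREB) to 0.71 (KLHDC2). The listed genes are the highest of many, with no test, and none of the 10 passed in MI against Sham animals (lowest adjusted p 0.416).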

How the data were processed

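RNA of 16 left ventricles (8 MI, 8 Sham) was hybridised as biotin-labelled cRNA to Affymetrix porcine arrays, per the labels' protocols. The authors deposited 1 log2 signal per probe set and array; the scale is judged from the values (2.87 to 14.9, all arrays with a median of 6.24). How they summarised and normalized the probes, with which software and genome build, is not given in the sources used here. Equalised arrays would hide any change shared by most genes, and no further scaling was applied.

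Differences were fitted in R 4.3.3 with limma 3.58.1, with 1 mean for each cell of group and labelled sex (12 residual degrees of freedom), over 23999 probe sets without the 124 control probe sets, two-sided, with Benjamini-Hochberg adjustment and a threshold of 0.05. MI against Sham is the mean of the differences in females and males. The fits of set B alone, of the replicate block and of group alone had no term for sex. Nothing states more than that each array is 1 animal, so p-values set a difference against the spread between these animals. Precision is limited by how many arrays there are and by signal near background. In simulated data the fit recovered 58 of 100 added differences of 0.5 and 100 of 100 of 1, with 13 false calls. A probe set that did not pass is therefore not shown to be unchanged.

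Symbols came from the array's annotation; 10069 probe sets had 1 symbol, 198 several and 13732 none. Genes named were all members, the passing genes and the 2 of lowest p of each list (a gene by its brightest probe set), and the 5 most like PPARG and ADIPOQ. Members and lists were chosen with earlier results of these data known. No pairing by animal number is stated. Correlations of deviations between MI and Sham animals of the same number ran from -0.07 to 0.46. They were not set against those of animals with unlike numbers. Alternatives were other fits, scalings, filters, array sets and leaving out each animal. Sequences and positions were not used here.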

Additional observations from a re-analysis of the deposited data

Results flagged for a closer look

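In 1 of the 28 groups of 8 animals checked (14 member probe sets in MI and in Sham), the FASN probe set Ssc.18175.1.A1_at in Sham, a single animal stood far from the others. Sham 7 had a log2 signal of 7.99, and the nearest Sham animal had 7.17. The gap was 0.684 of the group's range, above the limit of 0.526 (Dixon's 95% value for 8 samples). Chance alone gives such a gap in about 5% of groups. Sham 7 belongs to array set B. No member passed the test of a difference between the sexes.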

How the results depend on the processing

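Among MI against Sham differences, PPARG and the FASN probe set Ssc.25076.1.A1_at passed in 29 of 30 alternatives each, all but set B alone. ADIPOQ passed in 14 of 28 and RETN in 13 of 29. The count of probe sets passing, 2527, became 654 among the 16000 brightest, 993 among those above background and 1 in set B alone; under the other alternatives it was 2234 to 3245, and 2045 to 2537 when 1 animal was left out. Within females 685 became 200 above background and 376 to 710 with 1 animal left out (at or under 421 without MI 7, Sham 1, Sham 3 or Sham 5). Within males 816 became 265 above background and 415 to 950 with 1 animal left out (at or under 515 without MI 3, MI 4, MI 5, Sham 4, Sham 6 or Sham 8). The cause of these changes was not tested. Set B alone has fewer arrays and was fitted without a term for sex, and the filtered fits tested fewer probe sets. None of these was tested as a cause. The background share of 10.5% set beside the members holds for the unfiltered fit, dim probe sets included.

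With the animal number as a replicate block 2790 probe sets passed; ADIPOQ no longer did (adjusted p = 0.0587) and FASN Ssc.25076.2.S1_at did (0.22, adjusted p = 0.0303). Whether the numbers pair the animals is not stated, and what the block means for either result was not tested. The block changed no other member's call.

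Signs turned for 17 member results, none passing either way. In set B alone, without a term for sex, MI minus Sham was -0.16 for FABP4, 0.047 for LEP Ssc.265.1.S3_at and 0.023 for FASN Ssc.18175.1.A1_at. With the set as a block LIPE was 0.18 in males and -0.042 in female minus male, and the interaction was -0.10 for LEP Ssc.265.1.S2_at, -0.15 for FASN Ssc.18175.1.A1_at and -0.048 for FASN Ssc.25076.1.A1_at. Leaving out 1 animal gave -0.21 to 0.23 for FASN Ssc.18175.1.A1_at in females and -0.040 to 0.047 for LEP Ssc.265.1.S3_at in males. For the interaction it gave -0.30 to 0.034 (PPARG), -0.042 to 0.24 (ADIPOQ), -0.10 to 0.078 (LEP Ssc.265.1.S2_at) and -0.085 to 0.052 (FASN Ssc.25076.2.S1_at). For female minus male it gave -0.035 to 0.050 (RETN), -0.0062 to 0.20 (FABP4), -0.0044 to 0.086 (LEP Ssc.265.1.S2_at), -0.058 to 0.011 (FASN Ssc.25076.2.S1_at) and -0.040 to 0.13 (LIPE). ADIPOQ, RETN and LEP Ssc.265.1.S3_at lie at or near background, which limits their precision.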
